A study of Rattus norvegicus with 304 samples.

Results

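Exoc3, Uvrag and Bbs2 are 3 genes of membrane trafficking whose mRNA was measured by quantitative PCR in rat liver after TCDD, a dioxin that activates the aryl hydrocarbon receptor (AHR). They were taken by gene symbol from the deposited fold change tables, where they are 3 of 50 targets. All 3 are among the 49 targets of the OpenArray, a plate of nanolitre PCR wells, and Exoc3 and Uvrag are among the 39 targets of the 7900HT, a real-time PCR instrument for plates. Bbs2 has values on the OpenArray only.

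The animals were male rats aged 10 to 12 weeks that received 1 dose of TCDD or of the corn oil vehicle by oral gavage. TCDD-sensitive Long-Evans rats received 0.001, 0.01, 0.1, 1, 10, 50, 100 or 1000 µg/kg, and TCDD-resistant Han/Wistar rats 0.001, 0.01, 0.1, 1, 10, 100, 1000 or 3000 µg/kg, with liver taken at 19 h. At 100 µg/kg liver was also taken from Long-Evans at 3, 6, 10, 96 and 240 h and from Han/Wistar at 1.5, 3, 6, 10, 96, 240 and 384 h, and vehicle groups were taken from Long-Evans at 19, 96 and 240 h and from Han/Wistar at 1.5, 19, 96, 240 and 384 h. The labels place 150 OpenArray and 154 7900HT samples in 36 groups per platform, with 3 to 7 samples in each, and 150 sample titles are the same on both, so the platforms are not independent.

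The authors' deposited table of each platform gives 1 value per gene and group, a log2 fold change whose zero is the corn oil group at 19 h in that strain. No values per animal could be tied to the labels, so the spread between animals is unknown and no value carries an SD. Every test was therefore made over groups, and a p-value measures the spread between groups that differ in dose or time. In whole liver, fewer cells of a type and less RNA per cell cannot be told apart. None of 21 markers fixed for liver cell types is a target, so the labelled tissue could not be checked against its markers on these panels.

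Exoc3, also called Sec6, is a subunit of the exocyst, the complex that tethers secretory vesicles to the plasma membrane before they fuse. The protein made from Uvrag joins Beclin 1 in the class III phosphatidylinositol 3-kinase complex and takes part in the maturation of endosomes and autophagosomes. Bbs2 is a core subunit of the BBSome, the coat that carries membrane proteins into and out of the primary cilium, and its loss causes Bardet-Biedl syndrome in humans. AHR bound by TCDD pairs with ARNT and binds a DNA element with the core GCGTG, and Cyp1a1 and Ahrr, the gene of the AHR repressor, are textbook targets of that pair. Of 56 genes listed for the exocyst, for endosomes and autophagy and for the BBSome and cilium, 2 were measured, namely Exoc3 and Bbs2, and none beside them.

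Exoc3 lies on chromosome 1 and its nearest named coding gene on one side is Ahrr, which was itself a target, with Slc9a3 on the other side. Uvrag lies on chromosome 1 between Rpl27l2 and Dgat2, and Bbs2 on chromosome 19 between Mt4 and Ogfod1, none of which has a fold change. The promoter windows of the 3 genes and of Ahrr are shown because the AHR core is a sequence that can be read in them. Each window runs from 250 bases before to 50 bases after the annotated start of the gene, 5′ to 3′ on the gene's strand, from RefSeq on the GRCr8 build. They are chr1:30919625-30919924 on the plus strand for Exoc3, chr1:162854299-162854598 on the minus strand for Uvrag, chr19:10915316-10915615 on the plus strand for Bbs2 and chr1:30821969-30822268 on the plus strand for Ahrr. Capitals mark GCGTG, or CACGC where the core reads on the opposite strand.
Exoc3: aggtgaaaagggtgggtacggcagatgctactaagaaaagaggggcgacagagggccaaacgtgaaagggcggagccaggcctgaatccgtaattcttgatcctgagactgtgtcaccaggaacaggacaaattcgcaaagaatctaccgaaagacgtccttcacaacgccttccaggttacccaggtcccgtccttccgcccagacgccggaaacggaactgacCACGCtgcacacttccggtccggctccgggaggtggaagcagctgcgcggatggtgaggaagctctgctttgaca
Uvrag: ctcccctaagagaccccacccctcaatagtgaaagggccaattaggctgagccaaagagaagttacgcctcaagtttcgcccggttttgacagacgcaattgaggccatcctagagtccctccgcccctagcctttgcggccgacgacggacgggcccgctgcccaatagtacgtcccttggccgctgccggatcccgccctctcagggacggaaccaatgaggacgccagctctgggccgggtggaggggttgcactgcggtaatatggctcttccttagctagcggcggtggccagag
Bbs2: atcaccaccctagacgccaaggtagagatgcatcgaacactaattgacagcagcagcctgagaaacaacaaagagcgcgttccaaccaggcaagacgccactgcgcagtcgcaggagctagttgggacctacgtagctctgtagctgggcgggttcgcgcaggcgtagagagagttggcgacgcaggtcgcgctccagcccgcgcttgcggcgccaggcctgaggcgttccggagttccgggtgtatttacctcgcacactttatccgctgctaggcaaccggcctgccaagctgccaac
Ahrr: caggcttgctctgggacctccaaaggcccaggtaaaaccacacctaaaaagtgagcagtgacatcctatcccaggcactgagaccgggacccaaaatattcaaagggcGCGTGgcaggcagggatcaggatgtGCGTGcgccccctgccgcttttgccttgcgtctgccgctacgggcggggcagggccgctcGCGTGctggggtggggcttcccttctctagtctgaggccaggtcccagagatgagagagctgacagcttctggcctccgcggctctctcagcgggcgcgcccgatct

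The Exoc3 window holds 1 core, on the opposite strand, 21 to 25 bases before the start. The Uvrag and Bbs2 windows hold 0. The Ahrr window holds 3, all on the gene's own strand, 138 to 142, 113 to 117 and 53 to 57 bases before the start, and the last of them also reads as the longer form TNGCGTG. Of 33469 rat promoter windows of the same length, 29.7% hold GCGTG on either strand, 4.89% hold TNGCGTG, which contains GCGTG, and 3.59% hold 3 or more cores. Counted by gene, 18 of 40 measured targets with a window, or 45%, hold the core in any of their windows, as do 32.4% of all genes with a window. These matches are letters in a window and were not tested for binding.

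Over the TCDD doses at 19 h, all 3 genes rose with dose in Long-Evans on the OpenArray, while in Han/Wistar the trend passed the test for Uvrag alone. Exoc3 had the widest range of the 3. The authors' deposited table lists Exoc3 in Long-Evans at -2.23, -1.91, -1.47, -0.60, 0.14, 1.36, 1.77 and 0.34 from 0.001 to 1000 µg/kg. The lowest 4 doses were below corn oil at 19 h and the highest 4 above it, and the value at 1000 µg/kg was lower than those at 50 and 100 µg/kg. In Han/Wistar the authors' deposited table gives Exoc3 as -1.06, -2.01, -1.05, -1.84, -0.32, 1.48, -0.95 and 0.77 from 0.001 to 3000 µg/kg. Here 100 and 3000 µg/kg were above 0 and the other doses below it. The corn oil groups of other times set a scale for these values, since Exoc3 ranged from -0.97 to 0.39 over the Long-Evans corn oil groups and from -2.66 to 0.05 over the Han/Wistar ones in the authors' deposited table. The SD among corn oil groups ranked Exoc3 5th of 49 targets in Long-Evans, at 0.70 against a median target's 0.14, and 6th in Han/Wistar, at 1.14 against 0.21.

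Uvrag moved over a narrower range. From the lowest to the highest dose the authors' deposited table lists it at 0.10, -0.36, 0.07, 0.33, 0.55, 0.66, 0.67 and 0.84 in Long-Evans. Han/Wistar values of Uvrag in the authors' deposited table were -0.40, -0.52, -0.31, -0.04, -0.02, 0.13, 0.38 and 0.34. The highest doses were the highest values in both strains. The authors' deposited table lists Bbs2 in Long-Evans at -0.38, -0.59, 0.01, 0.00, 0.13, 0.23, 0.41 and 0.35. For Han/Wistar it lists, again in the authors' deposited table, Bbs2 at -0.54, -1.01, -0.71, -0.69, -0.17, 0.23, 0.06 and -0.06. At doses up to 1 µg/kg Bbs2 in Han/Wistar stood 0.54 or more below corn oil at 19 h, whereas from 100 µg/kg it stood close to 0. The Han/Wistar corn oil groups ranged from -0.76 to 0 for Bbs2 in the authors' deposited table. Of the doses up to 1 µg/kg only 0.01 µg/kg, at -1.01 in the authors' deposited table, lay outside that range.

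Spearman's rho against dose was 0.93 for each of the 3 genes in Long-Evans (adjusted p = 0.00684, two-sided exact permutation test over 8 groups, Benjamini-Hochberg over 49 targets). So 3 of 3 passed upward, where 53.1% of all targets passed upward and 79.6% in either direction. In Han/Wistar 1 of 3 passed, where 38.8% of targets passed upward: rho was 0.95 for Uvrag (adjusted exact permutation p = 0.00799) and 0.76 for both Exoc3 and Bbs2 (adjusted exact permutation p = 0.0563). The upward direction of Uvrag and Bbs2 depended on the scale, since centring each group on the panel mean gave Long-Evans rho of -0.74 and -0.76 and Han/Wistar rho of -0.55 and -0.14. Centring on the panel median kept them upward, at 0.74 and 0.52 in Long-Evans, where neither passed (adjusted exact permutation p = 0.0591 and 0.224), and at 0.88 and 0.62 in Han/Wistar, where Uvrag passed (adjusted exact permutation p = 0.0187). For Exoc3 in Long-Evans rho was 0.93 under mean and under median centring alike (adjusted exact permutation p = 0.00781 and 0.00841), and in Han/Wistar it was 0.31 and 0.43. With corn oil at 19 h added as the lowest dose, rho for Exoc3, Uvrag and Bbs2 was 0.78, 0.92 and 0.83 in Long-Evans. All 3 were still called there, among 45 of 49 targets. In Han/Wistar rho was then 0.47, 0.72 and 0.45, and of the 3 only Uvrag was called (adjusted exact permutation p = 0.0488), among 37 targets.

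**Figure D1:**
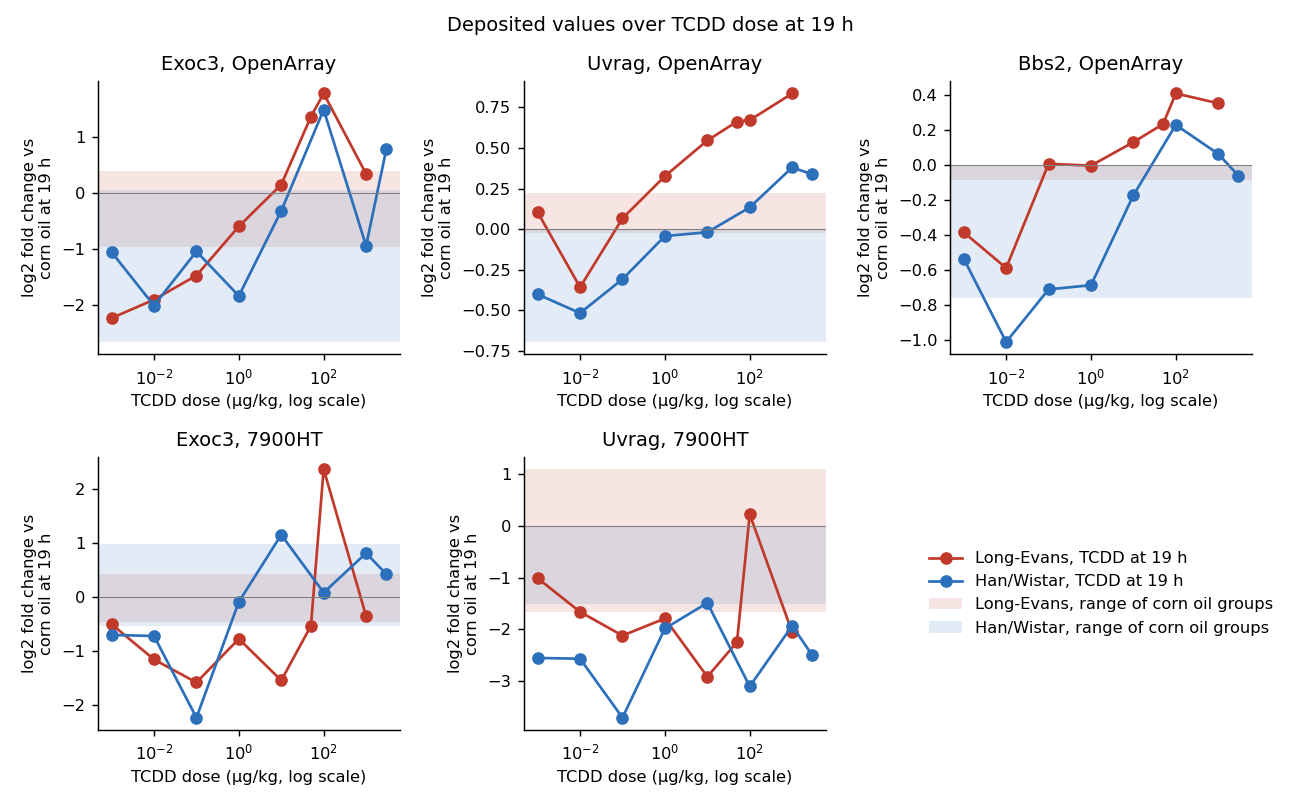
Log2 fold change of each gene against corn oil at 19 h over TCDD dose in µg/kg on a log axis, from the authors' deposited tables, with the OpenArray in the upper row and the 7900HT in the lower. Red points are Long-Evans and blue points Han/Wistar groups at 19 h, and shaded bands span the lowest to highest corn oil group of each strain. On the OpenArray Exoc3 in Long-Evans spans -2.23 to 1.77. The rise of Uvrag and Bbs2 turns downward when groups are centred on the panel mean, which includes strongly induced targets such as Cyp1a1.

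Over time at 100 µg/kg, Exoc3 reached the highest values of the 3 genes, and its highest values came at 96 h and later in both strains on the OpenArray. In Long-Evans Exoc3 stood at -0.20, -0.17, 1.07, 1.77, 3.32 and 3.20 at 3, 6, 10, 19, 96 and 240 h under TCDD, against 0, -0.97 and 0.39 at 19, 96 and 240 h under corn oil, in the authors' deposited table. TCDD groups at 3 and 6 h lay within the range of corn oil and all groups from 10 h on lay above it. Neither strain has a corn oil group at 3, 6 or 10 h. In those groups time and TCDD cannot be told apart, for any of the genes and on either platform. In Han/Wistar Exoc3 stood at -0.08, -0.09, 0.65, 0.62, 1.48, 2.54, 1.84 and 2.50 at 1.5, 3, 6, 10, 19, 96, 240 and 384 h under TCDD, against -2.66, 0, -0.41, 0.05 and -0.27 at 1.5, 19, 96, 240 and 384 h under corn oil, in the authors' deposited table. TCDD groups from 6 h on lay above every corn oil group, and those at 1.5 and 3 h fell inside the corn oil range.

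Set against the corn oil group collected with it, Exoc3 in Long-Evans on the OpenArray was 3.41-fold higher at 19 h, 19.6-fold higher at 96 h and 7.00-fold higher at 240 h. As log2 differences these were 1.77, 4.29 and 2.81, where the median of 49 targets was 0.59, 0.94 and 1.09, and Exoc3 ranked 11th, 8th and 11th from the top. On the 7900HT it was 5.14-fold, 6.49-fold and 10.7-fold higher at 19, 96 and 240 h, so the highest fold there came at 240 h. The Han/Wistar log2 differences on the OpenArray were 2.58, 1.48, 2.95, 1.79 and 2.76 at 1.5, 19, 96, 240 and 384 h, against panel medians of 0.30, 0.23, 0.71, 0.55 and 0.60. On the 7900HT they were -1.95, 0.08, 2.07, 2.50 and 2.31, so the sign at 1.5 h was opposite. On the OpenArray, part of the 96 h difference in Long-Evans, and all of the 1.5 h difference in Han/Wistar, lay in a low corn oil group, at -0.97 and -2.66 in the authors' deposited table. Low here means against corn oil at 19 h in the same strain. That Han/Wistar group has 3 labelled samples, and Cyp1a1 in it stood at 3.47 in the authors' deposited table.

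Uvrag was higher than every corn oil group in each Long-Evans TCDD group, as deposited, although its mean difference turned to -0.18 when groups were centred on the panel mean. It stood at 0.83, 0.90, 0.73, 0.67, 1.61 and 1.25 from 3 to 240 h under TCDD, against 0, 0.22 and -0.02 under corn oil, in the authors' deposited table. No TCDD group overlapped the corn oil range, which held upward for 51% of OpenArray targets in this strain. In Han/Wistar Uvrag stood at -0.28, 0.57, 0.81, 0.51, 0.13, 0.68, 0.23 and 0.41 from 1.5 to 384 h under TCDD, against -0.59, 0, -0.45, -0.39 and -0.69 under corn oil, in the authors' deposited table. There the 1.5 h TCDD group overlapped corn oil and the others were above it, with the highest value at 6 h.

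Bbs2 followed with smaller values. In Long-Evans it stood at -0.30, 0.57, 0.74, 0.41, 0.91 and 1.16 from 3 to 240 h under TCDD, against 0, -0.05 and -0.08 under corn oil, in the authors' deposited table. The 3 h group lay below every corn oil group, and the rest above, again with no corn oil group of equal time before 19 h. In Han/Wistar Bbs2 stood at -0.13, 0.09, 0.73, 0.57, 0.23, 0.44, -0.05 and 0.12 under TCDD, against -0.76, 0, -0.31, -0.38 and -0.43 under corn oil, in the authors' deposited table. The 1.5 h and 240 h TCDD groups fell within the corn oil range, and as for Uvrag the highest value came at 6 h.

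**Figure D2:**
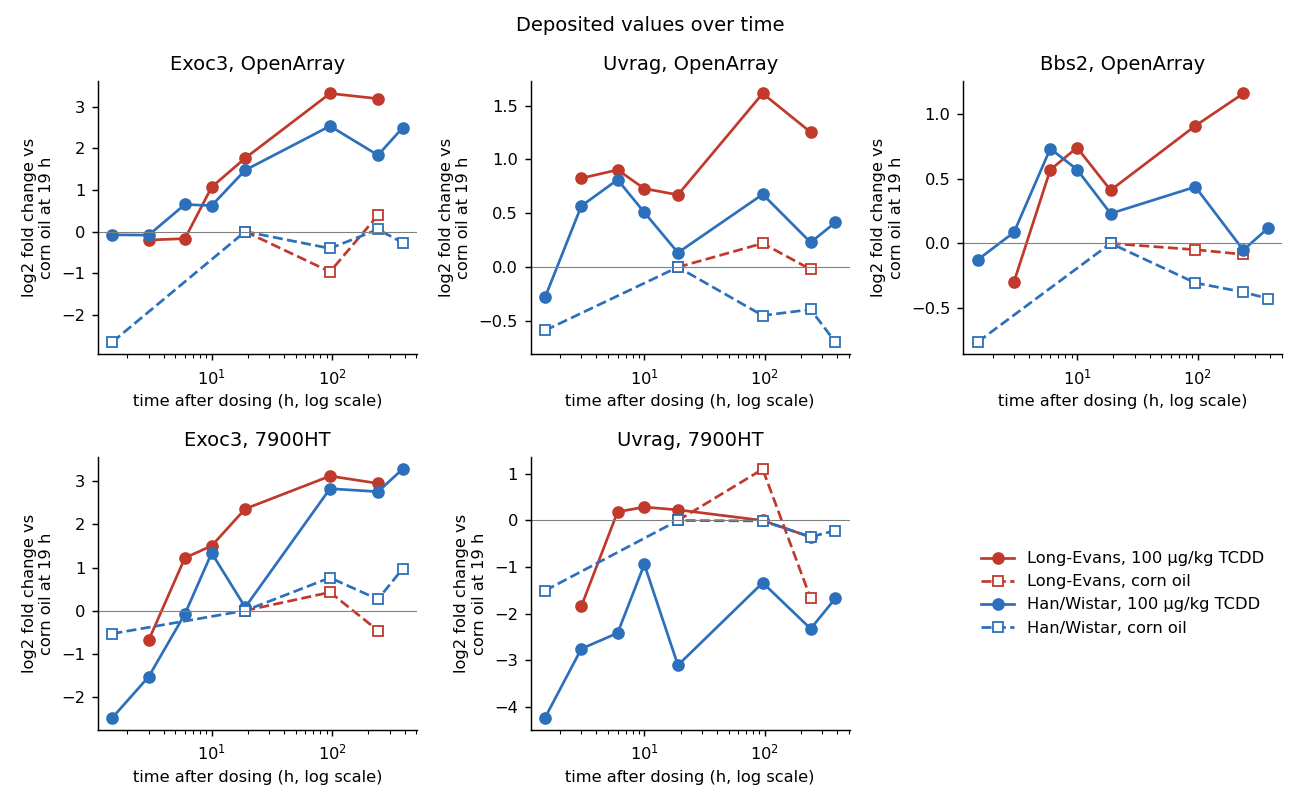
Log2 fold change against corn oil at 19 h over hours after dosing on a log axis, from the authors' deposited tables, with the OpenArray in the upper row and the 7900HT in the lower. Filled circles joined by solid lines are 100 µg/kg TCDD groups and open squares joined by dashed lines corn oil groups, in red for Long-Evans and blue for Han/Wistar. At 96 h on the OpenArray Exoc3 reaches 3.32 in Long-Evans and 2.54 in Han/Wistar, and Uvrag in Han/Wistar lies below 0 in every TCDD group on the 7900HT.

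The mean of the TCDD groups minus the mean of the corn oil groups was tested next, first on the OpenArray. These means pool all times, including TCDD times that have no corn oil group. In Han/Wistar all 3 genes passed upward, where 53.1% of targets did. Exoc3 averaged 1.18 over the 8 TCDD groups and -0.66 over the 5 corn oil groups, a difference of 1.84 (adjusted exact permutation p = 0.0254). Uvrag averaged 0.38 under TCDD and -0.42 under corn oil, a difference of 0.81 (adjusted exact permutation p = 0.0104). Bbs2 averaged 0.25 under TCDD and -0.37 under corn oil, a difference of 0.62 (adjusted exact permutation p = 0.0163). Without corn oil at 1.5 h the Exoc3 call was lost, with a difference of 1.34 (adjusted exact permutation p = 0.0673).

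In Long-Evans 1 of 3 passed, Uvrag, where 30.6% of targets passed upward. Uvrag averaged 1.00 over the 6 TCDD groups and 0.07 over the 3 corn oil groups, a difference of 0.93 (adjusted exact permutation p = 0.0365), at the smallest unadjusted p of 0.0119 that 84 splits allow. Exoc3 averaged 1.50 under TCDD and -0.19 under corn oil, a difference of 1.69 that did not pass (adjusted exact permutation p = 0.175). Bbs2 averaged 0.58 under TCDD and -0.04 under corn oil, a difference of 0.63 that did not pass (adjusted exact permutation p = 0.126). From the times with corn oil alone, same-time differences averaged 2.96 for Exoc3 and 0.87 for Bbs2, and they were not tested. The Uvrag call was lost in 7 of 9 fits that each left out 1 group, over which the difference ranged from 0.81 to 1.01. Its unadjusted exact permutation p was 0.0179 or 0.0357 in those fits, the smallest that the remaining groups allow. Whether the adjusted p passed then turned on how many other targets reached that p. In 7 of those fits no target of the panel passed.

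Most OpenArray targets were higher under TCDD, 32 of 49 in Long-Evans and 35 of 49 in Han/Wistar, and the difference had a panel median of 0.63 and 0.57 and a panel mean of 1.11 and 1.03. With each group first centred on its own median over the panel, the difference for Uvrag was 0.32 in Long-Evans and 0.37 in Han/Wistar, and that for Exoc3 was 1.08 and 1.40. With each group centred on its mean, Uvrag was at -0.18 and -0.22 and Bbs2 at -0.49 and -0.40, while Exoc3 stayed above 0 at 0.58 and 0.81, without passing the test there (adjusted exact permutation p = 0.480 and 0.173). Bbs2 in Han/Wistar, which passed upward as deposited, passed downward on that scale (adjusted exact permutation p = 0.0348). The panel mean includes strongly induced targets, such as Cyp1a1, Cyp1b1 and Aldh3a1 with same-time differences of 9.47, 9.60 and 9.64 at 19 h in Long-Evans. A target that rose by less than the panel mean is below 0 on that scale, which does not show that it fell. The calls of Exoc3 and Uvrag in Han/Wistar held under median centring (adjusted exact permutation p = 0.0422 and 0.0289), and those of Bbs2 in Han/Wistar and Uvrag in Long-Evans did not (adjusted exact permutation p = 0.171 and 0.0941).

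**Figure D3:**
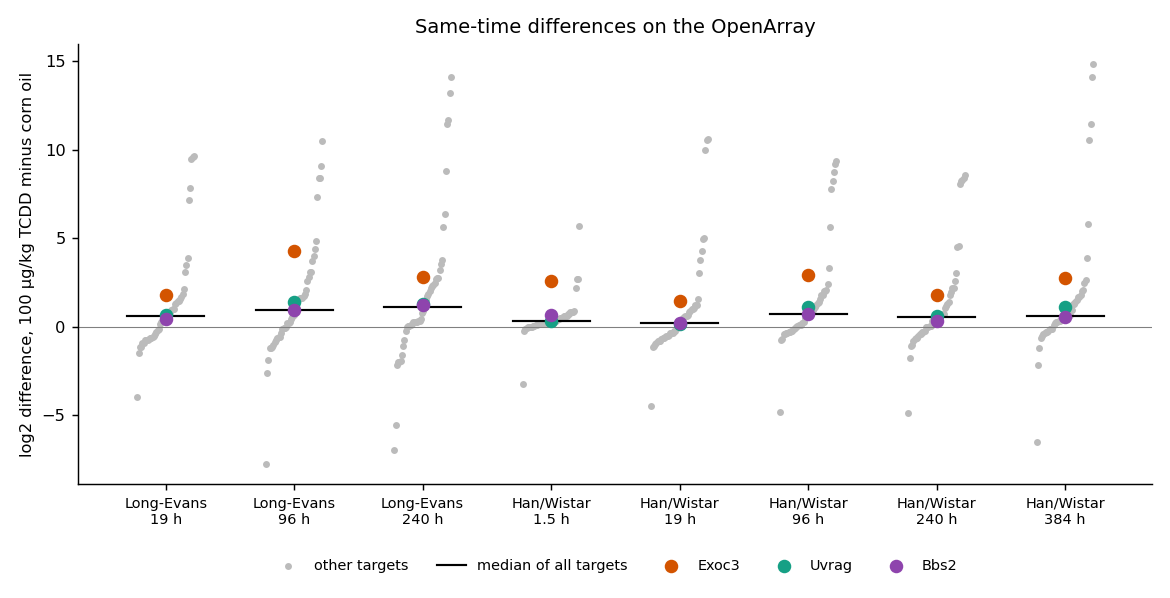
Log2 difference between 100 µg/kg TCDD and the corn oil group of equal time, OpenArray values, with 1 column for each strain and time. Grey points are the other targets in rank order, black bars the median of all targets, and coloured points Exoc3, Uvrag and Bbs2. Exoc3 is above the median in all 8 columns, by 3.35 at 96 h in Long-Evans, and Uvrag and Bbs2 lie within 0.51 of it.

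The strains were set against each other by the difference Long-Evans minus Han/Wistar in matched groups, and none of the 3 genes passed on either platform. Every such comparison had 0% of targets called after adjustment. On the OpenArray 10.4% of targets were under an unadjusted exact permutation p of 0.05 over dose and 12.2% over time, and on the 7900HT 0% and 20.5%. Exoc3 was among those 10.4%, since its strain difference rose over the 7 shared doses on the OpenArray with rho 0.82 (exact permutation p = 0.0341, adjusted 0.318). Uvrag over time on the 7900HT was among the 20.5% (exact permutation p = 0.0357). Uvrag and Bbs2 gave rho of 0.39 and -0.11 over dose on the OpenArray (adjusted exact permutation p = 0.791 and 0.960). Over matched times the OpenArray difference between TCDD and corn oil was 1.69 in Long-Evans and 1.29 in Han/Wistar for Exoc3, 0.93 and 0.77 for Uvrag, and 0.63 and 0.56 for Bbs2. On the 7900HT it was 1.76 in Long-Evans and 0.56 in Han/Wistar for Exoc3 and -0.06 and -2.03 for Uvrag (adjusted exact permutation p = 0.211 for both). A p that misses the threshold does not show that the strains respond alike, and a constant strain difference cannot be seen because each strain is set to 0 in its own corn oil.

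On the 7900HT Exoc3 again stood highest at late times. In Long-Evans it was -0.69, 1.23, 1.50, 2.36, 3.12 and 2.95 from 3 to 240 h under TCDD, against 0, 0.42 and -0.46 under corn oil, in the authors' deposited table. All TCDD groups from 6 h on lay above corn oil. In Han/Wistar the authors' deposited table gives Exoc3 as -2.49, -1.54, -0.08, 1.34, 0.08, 2.83, 2.76 and 3.28 from 1.5 to 384 h under TCDD, against -0.53, 0, 0.76, 0.26 and 0.97 under corn oil. The groups at 1.5 and 3 h lay below all corn oil groups, and those at 10 h and from 96 h on lay above them. Neither difference between the means passed, at 1.76 for Long-Evans with an adjusted exact permutation p = 0.171 and at 0.48 for Han/Wistar with an adjusted exact permutation p = 0.745. In Long-Evans 0% of the 39 targets passed this test, and 41% were under an unadjusted exact permutation p of 0.05, while in Han/Wistar 35.9% passed in either direction. The Han/Wistar difference was 0.12 without 100 µg/kg at 384 h and 0.95 without 100 µg/kg at 1.5 h, 0.013 under mean centring and 1.00 as the mean of same-time differences.

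Over dose on the 7900HT, Exoc3 in Long-Evans was -0.51, -1.16, -1.58, -0.78, -1.55, -0.54, 2.36 and -0.36 from the lowest to the highest dose in the authors' deposited table. The 100 µg/kg group stands alone above 0. Han/Wistar values of Exoc3 in the authors' deposited table were -0.71, -0.72, -2.24, -0.09, 1.15, 0.08, 0.81 and 0.42. The rank correlation with dose was 0.50 for Long-Evans (adjusted exact permutation p = 0.677) and 0.74 for Han/Wistar (adjusted exact permutation p = 0.179), and neither passed, where 0% and 2.56% of the 39 targets passed. In Long-Evans 12.8% of targets were under an unadjusted exact permutation p of 0.05. Centring groups on the panel median raised rho to 0.95 for Long-Evans, which passed (adjusted exact permutation p = 0.0148), and left it at 0.74 for Han/Wistar (adjusted exact permutation p = 0.128). Centring on the panel mean lowered rho to 0.26 and 0.07 (adjusted exact permutation p = 0.810 and 0.905). The panel median of the 7900HT itself ran from -2.27 at 10 µg/kg to 0.73 at 100 µg/kg in the Long-Evans dose groups, so many targets moved with Exoc3 between those groups.

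Uvrag on the 7900HT was lower under TCDD than under corn oil in Han/Wistar, opposite in sign to the OpenArray. There it stood at -4.24, -2.76, -2.42, -0.94, -3.11, -1.34, -2.32 and -1.67 from 1.5 to 384 h under TCDD, against -1.51, 0, -0.01, -0.35 and -0.22 under corn oil, in the authors' deposited table. Apart from corn oil at 1.5 h, all corn oil groups lay above all TCDD groups. Uvrag averaged -2.35 under TCDD and -0.42 under corn oil, and it fell by 1.93 (adjusted exact permutation p = 0.0265), where 20.5% of targets passed downward and 35.9% in either direction. This call was lost without corn oil at 19 h (adjusted exact permutation p = 0.0525) and without corn oil at 240 h (0.0591), and it held under mean, median and row-set centring, with differences of -2.40, -1.86 and -1.47.

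In Long-Evans on the 7900HT Uvrag stood at -1.84, 0.19, 0.29, 0.23, 0.00 and -0.36 from 3 to 240 h under TCDD, against 0, 1.10 and -1.67 under corn oil, in the authors' deposited table. Corn oil groups spanned nearly the whole range of the TCDD groups. The difference was -0.06 (adjusted exact permutation p = 0.976), where 0% of targets passed and 41% were under an unadjusted exact permutation p of 0.05, and its sign turned in 3 of 9 fits that left out 1 group. Over dose the authors' deposited table lists Uvrag in Long-Evans at -1.01, -1.66, -2.12, -1.79, -2.92, -2.25, 0.23 and -2.06. Han/Wistar values of Uvrag over dose in the authors' deposited table were -2.56, -2.57, -3.71, -1.99, -1.49, -3.11, -1.93 and -2.51. Neither trend passed (rho -0.21 and 0.38, adjusted exact permutation p = 0.690 and 0.610), and all Han/Wistar dose groups lay below the corn oil groups at 19 h and later.

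The platform difference itself was tested on OpenArray minus 7900HT in matched groups over the 38 shared targets. For Uvrag in Han/Wistar, the difference between TCDD and corn oil was 0.81 on the OpenArray and -1.93 on the 7900HT, a gap of 2.74 (adjusted exact permutation p = 0.00984). This was called for 23.7% of shared targets in either direction and for 21.1% upward, and it held under mean, median and row-set centring (gaps of 2.02, 2.19 and 1.82). For Exoc3 in Han/Wistar it was 1.84 on the OpenArray and 0.48 on the 7900HT (adjusted exact permutation p = 0.126). In Long-Evans no target was called by adjusted p and 18.4% were under an unadjusted exact permutation p of 0.05, with Exoc3 at 1.69 on the OpenArray and 1.76 on the 7900HT and Uvrag at 0.93 and -0.06. Over dose, neither gene passed in either strain, where 0% of targets were called and 5.26% in Long-Evans and 2.63% in Han/Wistar were under an unadjusted exact permutation p of 0.05.

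**Figure D4:**
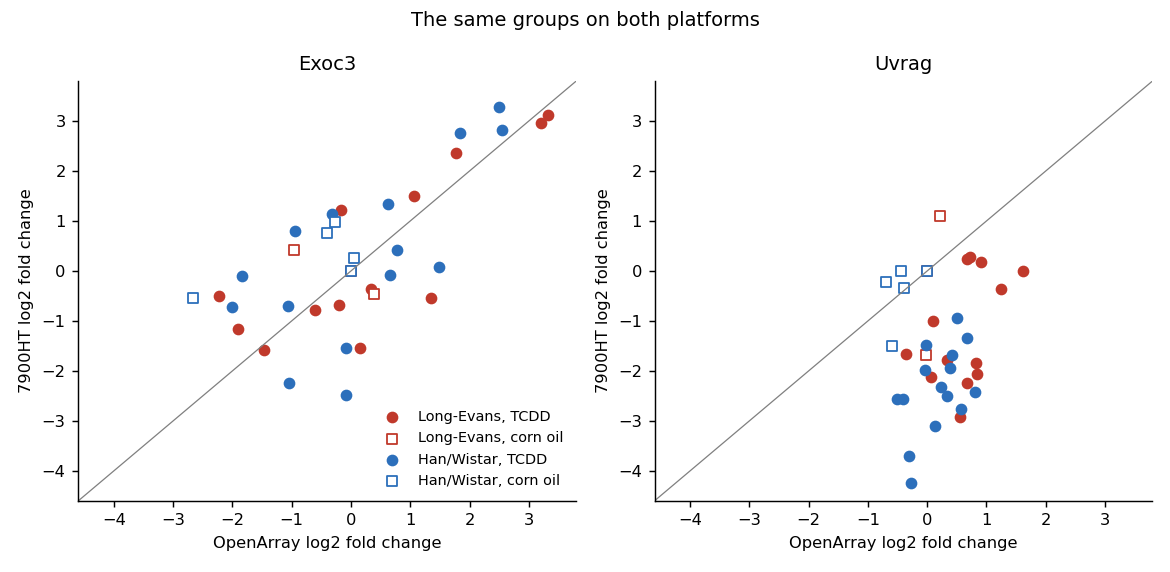
Log2 fold change of the same groups on the OpenArray (x axis) and the 7900HT (y axis) from the authors' deposited tables, with Exoc3 left and Uvrag right. Filled circles are TCDD and open squares corn oil groups, in red for Long-Evans and blue for Han/Wistar, and the grey line marks equal values. Exoc3 is correlated between platforms (Pearson r 0.78 and 0.65), with OpenArray minus 7900HT running from -1.73 to 1.89 in Long-Evans and from -2.12 to 2.41 in Han/Wistar, and the Han/Wistar Uvrag points all lie at or below 0 on the 7900HT.

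Across groups, leaving out corn oil at 19 h, Pearson's r between the platforms was 0.78 in 15 Long-Evans groups and 0.65 in 19 Han/Wistar groups for Exoc3, 4th and 8th highest of 38 shared targets, whose median r was 0.48 and 0.40. For Uvrag it was 0.31 and -0.15, ranked 27th and 36th. Uvrag was above 0 in 13 of 15 Long-Evans groups on the OpenArray and in 5 of 15 on the 7900HT, and in 9 of 19 and 0 of 19 Han/Wistar groups. These correlations describe groups that share animals between platforms and a common corn oil value within a platform. Exoc3 and Uvrag both belong to the 25 targets with 2 rows per gene in the raw 7900HT table, and 14 targets have 4. In Han/Wistar the difference between TCDD and corn oil had a median of -0.73 over the 2-row targets on the 7900HT and of 0.36 over the same targets on the OpenArray, and 16 of those 25 were below 0 on the 7900HT, with Uvrag 5th lowest. In the 4-row set the median was 1.16 on the 7900HT and 2.63 on the OpenArray. What the row number stands for is not given in the sources used here, and its part in the Uvrag values was not tested.

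The targets whose OpenArray pattern was most like each gene were named by Pearson's r over the same 15 and 19 groups, which share the corn oil value and any shift of a whole group. For Exoc3 they were Cyp2a1 (0.92), Scn4b (0.92) and Cyp1b1 (0.90) in Long-Evans, and Pde2a (0.83), Ahrr (0.82, over 17 groups) and Cyp1b1 (0.80) in Han/Wistar. The median over the other 48 targets was 0.64 and 0.51. After centring groups on the median, Scn4b (0.87), Cyp2a1 (0.87) and Cyp1b1 (0.86) led in Long-Evans and Ahrr (0.79), Scn4b (0.76) and Cyp1b1 (0.75) in Han/Wistar. For Uvrag they were Ube4b (0.97), Eml4 (0.94) and Ccbl1 (0.93) in Long-Evans and Eml4 (0.96), Ube4b (0.95) and Ccbl1 (0.92) in Han/Wistar, against medians of 0.74 and 0.58. Eml4 and Ube4b stayed in front after median centring (0.88 and 0.81 in Long-Evans, 0.91 and 0.82 in Han/Wistar), followed by Srxn1 (0.71) and Pmm1 (0.77).

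For Bbs2 the most alike were Neu1 (0.91), Pde2a (0.91) and Perp (0.87) in Long-Evans, and Uvrag (0.85), Neu1 (0.85) and Ube4b (0.82) in Han/Wistar. Median centring left lower values, with Neu1 (0.57), Pde2a (0.53) and Exoc3 (0.45) in Long-Evans and Srxn1 (0.61), Uvrag (0.57) and Exoc3 (0.56) in Han/Wistar. Among the 3 genes themselves, Exoc3 and Uvrag gave r of 0.83 in Long-Evans and 0.64 in Han/Wistar, Exoc3 and Bbs2 0.86 and 0.75, and Uvrag and Bbs2 0.84 and 0.85. After median centring these were 0.42 and 0.38, 0.45 and 0.56, and 0.14 and 0.57, lower for every pair in both strains.

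Ahrr was set beside Exoc3 because it is the neighbouring gene in the annotation, a choice made after the values were known. Under 100 µg/kg the authors' deposited table of the OpenArray lists Ahrr in Long-Evans at 7.45, 5.51, 7.08, 7.86, 11.54 and 11.69 from 3 to 240 h. In Han/Wistar it stood at 3.26, 3.71, 4.19, 3.71, 4.95, 9.95, 10.58 and 10.26 from 1.5 to 384 h in the authors' deposited table. Ahrr and Exoc3 were thus both highest at 96 h and later in both strains, and at 3 h in Long-Evans Ahrr was already at 7.45 while Exoc3 was at -0.20. At 19 h both were lower at 1000 than at 100 µg/kg, with Ahrr, by the authors' deposited table, at 5.88 and 7.86 in Long-Evans and 2.59 and 4.95 for Han/Wistar. Pearson's r between them was 0.84 over 14 Long-Evans and 0.82 over 17 Han/Wistar groups, where Ahrr ranked 13th and 2nd of 48 targets by its r with Exoc3. The r of Ahrr with Uvrag was higher in Long-Evans, at 0.92, and 0.59 in Han/Wistar, and with Bbs2 it was 0.79 and 0.47. Over the TCDD groups before 96 h the r of Exoc3 with Ahrr was 0.88 (10 Long-Evans groups) and 0.68 (11 Han/Wistar groups). On the 7900HT the r of Exoc3 with Ahrr was -0.30 and 0.37, and Ahrr itself there lay below 0 in every 100 µg/kg Han/Wistar group in the authors' deposited table. Ahrr swung widely on the 7900HT, at 18.13 at 3 h and -10.57 at 6 h in Long-Evans under 100 µg/kg in the authors' deposited table. Han/Wistar corn oil at 1.5 h stood at -10.89 there, so these r rest on unsteady values. On the OpenArray Ahrr in Han/Wistar was uneven too, though over a narrower range. The authors' deposited table lists it there at 3.31 at 0.01 µg/kg, 1.53 at 1 µg/kg and up to 2.29 under corn oil. Cyp1a1 in the 100 µg/kg Han/Wistar groups of the 7900HT ran from 6.78 to 14.12 in the authors' deposited table.

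**Figure D5:**
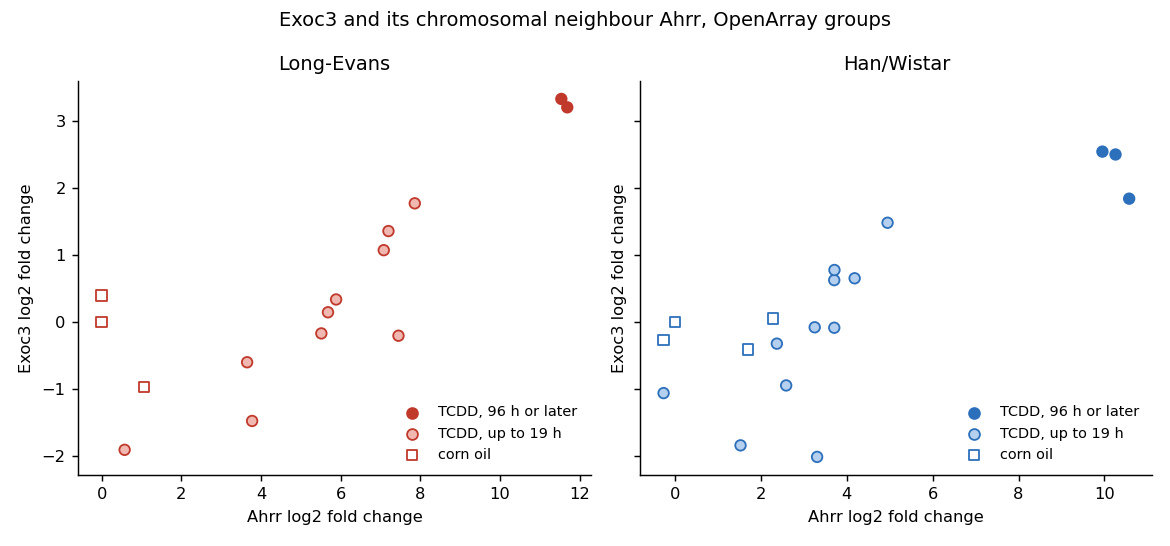
Log2 fold change of Exoc3 (y axis) against that of Ahrr (x axis) in OpenArray groups from the authors' deposited table, Long-Evans left and Han/Wistar right. Dark circles are TCDD groups at 96 h or later, pale circles TCDD groups up to 19 h at all doses and open squares corn oil groups. The late TCDD groups hold the highest values of both genes, with Ahrr at 9.95 to 11.69.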

How the data were processed

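Complementary DNA made from liver RNA was amplified on both platforms, per the labels' protocols. The authors deposited 1 value per gene and group, taken as a log2 fold change against corn oil at 19 h, although no header states the log base. For the 7900HT a comparative delta-delta Ct setting is named per the labels' protocols, and R 2.12.2 is named per the submitters' processing notes. Reference genes and averaging over animals were not stated. The 304 columns of raw cycle values carry animal codes that match no label and were not used. Groups follow the labels' strain, treatment, dose and time. Dose trends were tested with Spearman's rho over all 40320 orders of 8 groups (5040 for 7 shared doses), with at least 6 groups required. Time courses, strain differences and platform differences over time were tested as differences between means over every allocation of groups (1287 for Han/Wistar, 84 for Long-Evans and for matched strain groups). All tests were two-sided exact permutation tests over groups, adjusted by Benjamini-Hochberg over all targets, with a threshold of 0.05. Alternatives were centring of groups, Pearson's correlation, adding corn oil as the lowest dose, and dropping single groups. The procedures were tested on simulated data. Names of targets most like a member were the 3 highest Pearson r per strain. The members, lists and tests were chosen with earlier results of these data known. Scripts ran under Python 3.11.15 with pandas 2.3.3, numpy 2.4.6 and scipy 1.17.1, and matplotlib 3.10.9 drew the plots. Promoter windows came from RefSeq (GRCr8).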

Additional observations from a re-analysis of the deposited data

Results flagged for a closer look

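The Han/Wistar corn oil group of 1.5 h stood apart from the others of its strain for Exoc3 on the OpenArray, at -2.66 on the log2 scale in the authors' deposited table, with a gap to its nearest neighbour of 0.831 of the whole range. The same group stood apart for Uvrag on the 7900HT, at -1.51 in the authors' deposited table, with a gap of 0.767 of the range. Neither gene stood apart in that group on the other platform. There the authors' deposited tables list Exoc3 at -0.53 on the 7900HT and Uvrag at -0.59 on the OpenArray. Of 5 sets of corn oil groups examined 2 were so marked, by a limit (Dixon's) that chance passes in about 1 of 20 sets. Both hold the same group, whose sample titles recur on both platforms, so they are not independent. The panel median of that group was -0.35 on the OpenArray and -1.21 on the 7900HT. The group has 3 labelled samples, and the part of any of these values in the others was not tested.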

How the results depend on the processing

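No paired analysis was possible by replicate number because each group has 1 deposited value. The columns of single animals carry no label that ties them to a replicate number. Groups could be paired by time, and their same-time differences are given without a test. Strain and platform differences were taken in matched groups. Group mean centring on the OpenArray turned the dose trends of Uvrag and Bbs2 to rho -0.74 and -0.76 in Long-Evans and to -0.55 and -0.14 in Han/Wistar, and their time differences to -0.18 and -0.49 in Long-Evans and to -0.22 and -0.40 in Han/Wistar, where Bbs2 passed downward. It left Exoc3 in Han/Wistar at 0.81 over time, not called. The panel mean includes strongly induced targets, so a gene that rose by less than that mean can turn downward under mean centring. Median centring ended the calls of Uvrag (rho 0.74) and Bbs2 (0.52) over dose and of Uvrag over time (0.32) in Long-Evans, and of Bbs2 over time in Han/Wistar (0.18). Same-time differences averaged 2.96, 1.11 and 0.87 for Exoc3, Uvrag and Bbs2 on the OpenArray in Long-Evans, and 2.82 for Exoc3 and 0.15 for Uvrag on the 7900HT, from fewer groups. Pearson's r called Bbs2 over dose in Han/Wistar (0.82). On the 7900HT, Exoc3 over dose was called in Long-Evans under median centring (rho 0.95) and with the 2-row and 4-row sets centred apart (1.00), and with the latter in Han/Wistar (0.93), but not under mean centring (0.26 and 0.07). Uvrag over dose there turned to 0.79 in Long-Evans with sets apart, and in Han/Wistar to -0.60 under mean centring and -0.033 with corn oil as the lowest dose. Strain differences, none called, turned sign: Uvrag over dose on the OpenArray to -0.29 (mean) and -0.25 (median) and over time to -0.039 (median), Bbs2 over time to -0.10 and -0.14, and on the 7900HT over dose Exoc3 to 0.14 and 0.21 and Uvrag to 0.14 and 0.14. So did platform differences over dose: Uvrag in Long-Evans to -0.21 (mean), Exoc3 in Han/Wistar to 0.024 under mean and 0.024 under median centring, and Uvrag in Han/Wistar to -0.57 (sets apart). The cause was not tested. Leaving out single groups gave time differences of 0.81 to 1.01 for Uvrag and 0.51 to 0.80 for Bbs2 on the OpenArray in Long-Evans, 1.34 to 2.02 for Exoc3 in Han/Wistar, and -0.80 to 0.59 in Long-Evans and -2.21 to -1.66 in Han/Wistar for Uvrag on the 7900HT. Bbs2 in Long-Evans was called without 100 µg/kg at 3 h. Called targets went to 28 of 49 under mean centring for the Long-Evans time course on the OpenArray, where 16 were called as reported, and to 0 in 7 of 9 fits without 1 group. On the 7900HT 0 targets were called over dose in Long-Evans, 3 under median centring and 10 with sets apart, and 0 over time, 10 under each of the 3 centrings. In Han/Wistar there 1 was called over dose, 6 under mean and 6 under median centring, 3 with sets apart, and 0 with Pearson's r or with corn oil as the lowest dose. Pearson's r called 1 strain difference over dose on the OpenArray, where 0 were called, and sets apart called 2 platform differences over dose in Long-Evans, where 0 were called, and 16 over time in Han/Wistar, where 9 were called. Without single groups the counts fell as low as 24 in Long-Evans and 7 in Han/Wistar over dose on the OpenArray, where 39 and 29 were called, and 4 over time in Han/Wistar on the 7900HT, where 14 were called.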

Other observations

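The 7900HT target most like Uvrag, chosen after the values were seen, was Pde2a, with Pearson's r of 0.97 over 15 Long-Evans and 0.96 over 19 Han/Wistar groups, and 0.82 and 0.94 after centring groups on the median. On the OpenArray the nearest targets to Uvrag were Eml4 and Ube4b. For Exoc3 on the 7900HT, Ccbl1 was the nearest target in both strains, with r of 0.92 in Long-Evans and 0.89 in Han/Wistar. These groups share a corn oil value and any shift of a whole group. Cyp1a1, the cytochrome P450 induced by AHR, is listed in the authors' deposited table of the OpenArray at 7.85, 9.11, 9.24, 9.47, 9.50 and 9.29 in Long-Evans from 3 to 240 h after 100 µg/kg, already near its highest value at 6 h, when Exoc3 stood at -0.17. Exoc3 at 6 h differed elsewhere in the authors' deposited tables, at 1.23 in Long-Evans on the 7900HT. In Han/Wistar it was 0.65 on the OpenArray and -0.08 on the 7900HT by the authors' deposited tables.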
